A study of Mus musculus with 141 samples.

Results

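The expressed Zfp zinc finger genes of the mouse were examined in liver, lung and kidney of 47 Collaborative Cross strains. They were chosen on their level: every gene whose symbol is Zfp followed by a number and whose TPM (a transcript level corrected for length and library size) was over 1 in at least 24 of the 47 libraries of at least 1 tissue. Of the 390 such symbols among 24423 genes in the files, 283 (72.6%) passed and are called members here. The same level rule was passed by 13436 genes in all (55.0%). Collaborative Cross strains are recombinant inbred mice bred from a shared panel of founder strains, so the 47 strains differ in genotype and were otherwise treated alike. Each was represented by 1 adult male of 8 to 12 weeks, kept in chambers with clean air before tissue collection. Liver, lung and kidney came from the same mouse, giving 3 groups of 47 RNA-seq libraries. With 1 mouse per strain, a difference between strains includes the difference between mice and between libraries.

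Zinc finger genes of this naming series encode proteins whose short loops, each held by a zinc ion, read DNA or RNA. In the C2H2 class each finger contacts a few bases, and arrays of fingers joined by a conserved linker recognise longer sites. Many carry a KRAB domain at the start of the protein, which recruits the corepressor Trim28 and through it histone methylation and silencing, above all of transposable elements. KRAB zinc finger genes lie in clusters of near copies that expand and diverge quickly, also between mouse strains. A smaller set with CCCH fingers binds mRNA and directs its decay.

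The 283 members were matched by symbol to the GENCODE vM1 annotation of NCBIM37 (mm9), the build the authors used, and 280 were found, 22 of them under an older symbol. For 278 a protein could be translated, and 136 of these (48.9%) held a KRAB domain by a search for its motif. The median member had 10 C2H2 fingers and Zfp462 had the most, 34. No C2H2 finger was found in 14 members, of which 3 had CCCH fingers. Chromosome 7 held 67 members, chromosome 17 held 39, chromosome 13 held 32, and chromosomes 2 and 8 held 17 each. The reads were 50 bases long, so near copies matter for the counts: in 107 members every 50-base window of the transcript was unique in the genome, and in 41 members under 80% of the windows were. The authors counted reads that aligned uniquely to genomes built for each strain, so a read from a shared window may not be counted. Values of members with shared windows are therefore less certain.

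Total counts per library ran from 1738046 to 42158454, with medians of 10423400 in liver, 9338120 in lung and 8245850 in kidney. Markers of each tissue were at their labelled place. The summed TPM of 6 liver genes was at least 29316 in every liver library and at most 1626 elsewhere, that of 6 lung genes at least 19400 in lung, and that of 6 kidney genes at least 29082 in kidney. Lung also held cardiac muscle markers, at a summed TPM of 147 to 3490 over 6 genes, all of them detected, against at most 28.4 in the other tissues. B cell markers summed to 1.69 to 364 TPM in lung and at most 11.8 elsewhere, and T cell markers to 4.30 to 156 TPM in lung and at most 30.6 elsewhere. Endothelial markers summed to at least 270 TPM in lung, at most 84.4 TPM in liver and at most 138 TPM in kidney. The part of these cells in the values of the members was not tested. In tissue RNA, fewer cells of a type and less RNA per cell cannot be told apart.

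As deposited, members took more of the reads in lung than in liver or kidney. Their summed share of the counts was 0.0502 to 0.578% in liver (median 0.278%), 0.128 to 1.29% in lung (median 0.892%) and 0.145 to 0.964% in kidney (median 0.594%). The highest library thus had 11.5 times the share of the lowest in liver, 10.1 times in lung and 6.66 times in kidney. After TMM scaling, which aligns the bulk of the genes between libraries, the summed CPM (counts scaled to a fixed library size) of the members differed by at most 1.42-fold in liver, 1.45-fold in lung and 1.24-fold in kidney, and its medians were close, at 4454, 4784 and 4502. Levels below are therefore given in TPM as deposited, and folds and correlations on the TMM scale.

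All 283 members passed the level rule in lung, 262 passed in kidney and 219 in liver. Passing in all 3 tissues was found for 218 members, in lung and kidney for 44, in lung alone for 20, and in liver and lung for Zfp872 alone. The median member had a median TPM of 3.29 in liver, 12.8 in lung and 7.08 in kidney. By median TPM, 255 members were highest in lung, 25 in kidney and 3 in liver. All genes leaned to lung over liver as well. On log2(TPM + 1), 57.5% of those tested were called higher in lung than liver and 8.28% higher in liver. How many of all genes had their highest median in lung was not counted. A lung median of at least 10 TPM was reached by 170 members, and 19 members had a median of at least 50 TPM in some tissue. The members just inside the threshold were Zfp960 and Zfp991, each over 1 TPM in 24 lung libraries with medians of 1.02 and 1.04 TPM, and Zfp865 in 25 with 1.08 TPM. Just outside were Zfp648 and Zfp691, with 23 kidney libraries and kidney medians of 1 TPM, and Zfp385b, with 23 liver libraries and a median of 0.95 TPM.

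**Figure D1:**
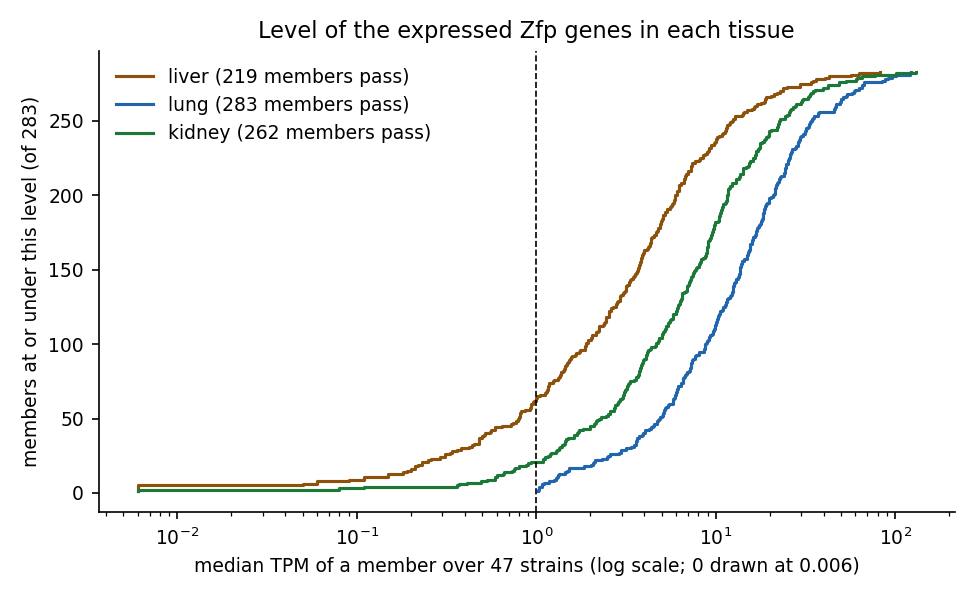
Each line counts, for 1 tissue, the members whose median TPM over 47 strains (x axis, log scale) is at or under a given level (y axis, count of 283), and the dashed line marks 1 TPM. The lung line lies to the right of the kidney line, and the kidney line to the right of the liver line, with medians of 12.8, 7.08 and 3.29 TPM.

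Of the 7 members that were among the top 3 of a tissue, Zfp36, Zfp36l1, Zfp106 and Zfp706 were on the list of RNA binding and decay genes. In liver Zfp36 led, which encodes tristetraprolin, a CCCH protein that speeds the decay of mRNAs with AU-rich elements. Its TPM ran from 14.6 through a median of 82.0 to 273 in liver, from 38.1 through 95.4 to 199 in lung, and from 18.4 through 33.4 to 70.1 in kidney. The highest liver and the highest kidney value both came from strain CC042, whose summed TPM of 8 immediate early genes was also the highest of the 47 in both tissues, at 576 and 359. The part of the immediate early genes in this value was not tested. Zfp36l1, a close relative that acts on the same class of mRNAs, was first in lung, with a median of 122 TPM (65.1 to 211), against 56.9 TPM (21.8 to 96.8) in liver and 42.3 TPM (19.2 to 75.6) in kidney. Zfp706 was first in kidney, with a median of 130 TPM (47.0 to 220), and its liver values of 10.5 to 44.0 TPM did not reach the lowest kidney library. Zfp106, an RNA binding protein needed by motor neurons, had medians of 121 TPM in lung, 101 TPM in kidney and 36.1 TPM in liver. The other members among these 7 were Zfp445, a KRAB protein that guards genomic imprints, Zfp652, a DNA binding repressor, and Zfp871. Zfp445 had medians of 63.1, 90.9 and 65.2 TPM in liver, lung and kidney, Zfp652 of 23.6, 101 and 16.8 TPM, and Zfp871 of 33.9, 65.4 and 77.0 TPM.

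Expression was then compared between the 3 tissues within strains. Counts were fitted with limma-voom on the 12127 genes that exceeded 1 CPM in 30% of libraries or more, using terms for strain and tissue. Calls needed a Benjamini-Hochberg q of at most 0.1 and a log2 fold change of at least 1 in either direction, and 276 members were tested. The members were chosen on levels in these same libraries, so their counts are descriptions. On the TMM scale a smaller share of the members than of all genes was called in each pair and direction. With total counts this turned for lung over liver and, by less, for kidney over liver. Between liver and lung, 16 members (5.80%) were higher in liver, against 23.9% of all genes tested, and 57 members (20.7%) were higher in lung, against 31.0%. Between liver and kidney, 17 members (6.16%) were higher in liver, against 15.6%, and 34 (12.3%) were higher in kidney, against 20.8%. Between lung and kidney, 33 members (12.0%) were higher in lung, against 25.5%, and 8 (2.90%) were higher in kidney, against 20.6%. In all, 92 members were called in some pair, which was not counted over all genes. Members could enter the list through their level in 1 tissue: of the 57 higher in lung than liver 21 passed the level rule in both tissues, and of the 34 higher in kidney than liver 8 did.

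The median log2 fold change of the members was -0.25 for liver against lung, -0.04 for liver against kidney and 0.26 for lung against kidney, beside -0.06, -0.00 and 0.04 over all genes tested. The split by direction depended on the scaling. With DESeq2 size factors, 8 and 77 members were called higher in liver and in lung, and 42 and 7 higher in lung and in kidney. With total counts and no scaling factor, the median of all genes moved to -1.44 for liver against lung, -0.95 for liver against kidney and 0.46 for lung against kidney. The members called were then 1 higher in liver and 227 (82.2%) in lung, against 9.78% and 61.6% of all genes. Between liver and kidney they were 4 and 137 (49.6%), against 8.09% and 47.8%, and between lung and kidney 73 (26.4%) and 4, against 33.4% and 15.1%. On log2(TPM + 1), 78.6% of the members and 57.5% of all genes were called higher in lung than liver. Without the CPM filter, the members' median lay 0.64 below that of all genes for liver against lung, where the filtered fit gave 0.20.

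**Figure D2:**
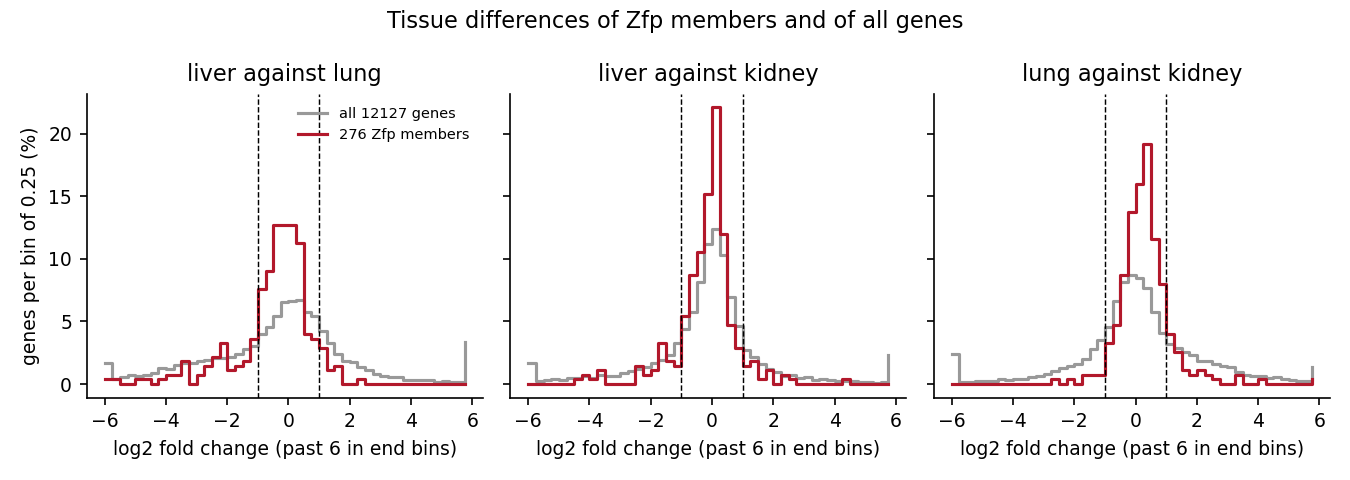
Each panel shows the share of genes (y axis, percent per bin of 0.25) at each log2 fold change (x axis, first tissue over the second, values past 6 in the end bins) for 276 members and for all 12127 genes, with dashed lines at the fold threshold. The members are gathered nearer to 0 than all genes in each panel, and their medians are -0.25, -0.04 and 0.26.

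On the TMM scale, 9 members were called higher in liver than in both other tissues: Zfp141, Zfp36, Zfp707, Zfp750, Zfp825, Zfp872, Zfp874a, Zfp970 and Zfp972. By median TPM as deposited, 6 of them (Zfp141, Zfp36, Zfp750, Zfp872, Zfp970 and Zfp972) were higher in lung than liver. The share of all genes called higher in 1 tissue than in both others was not counted. Largest against lung was Zfp707, with TPM of 5.39 to 52.5 in liver (median 24.8), 1.79 to 31.4 in lung (median 10.8) and 4.40 to 20.9 in kidney (median 11.6). On the TMM scale the CPM of Zfp707 (mean ± SD, n = 47 per tissue) was 27.0 ± 8.33 for liver, 4.73 ± 1.52 for lung and 7.00 ± 1.44 for kidney. The log2 fold change of Zfp707 over lung was 2.48 (SE 0.07, limma adjusted p = 1.9e-55), with the same direction in 47 of 47 strains. Zfp825 and Zfp874a, both on chromosome 13, followed at 1.70 and 1.60, again in 47 of 47 strains. Against kidney the largest were Zfp872 at 4.49, Zfp972 at 2.52 and Zfp36 at 2.28. Zfp872 had at most 0.60 TPM in kidney and up to 25.9 TPM in liver, and its counts were at 3 or fewer in most kidney libraries, as those of Zfp972 were in 26, so these fitted folds depend on the prior count. Zfp36 was also called over lung, at 1.36, but its sign turned with total counts (-0.024) and on TPM.

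On the same scale 24 members were called higher in lung than in both other tissues. In each pair with lung, members were called higher in lung less often than all genes. The shares were 20.7% against 31.0% over liver and 12.0% against 25.5% over kidney. Zfp474 was the most extreme: 2.40 to 23.3 TPM in every lung library (median 15.5), at most 0.16 TPM in liver and at most 0.86 TPM in kidney, with medians of 0 in both. All 47 liver and all 47 kidney libraries of Zfp474 held 3 counts or fewer, so its fitted log2 fold changes of -5.90 for liver against lung and 6.49 for lung against kidney depend on the prior count. Set against 3 counts per library, Zfp474 was at least 8.38-fold higher in lung than liver and at least 14.9-fold higher in lung than kidney. Zfp365 had 2.25 to 19.8 TPM in lung (median 8.97), at most 0.32 TPM in liver, and 0 to 24.4 TPM in kidney (median 2.11). Lung and kidney thus overlapped for Zfp365, and liver and lung did not. All 47 liver libraries of Zfp365 held 3 counts or fewer, and lung was at least 13.1-fold higher by the same measure. Zfp831 had a median of 3.59 TPM in lung (0.05 to 8.55) and at most 0.81 TPM in the other tissues, with a log2 fold change over kidney of 4.21, which depends on the prior count because 25 kidney libraries held 3 counts or fewer.

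Some members were shared by lung and kidney and nearly absent from liver. Zfp641, a KRAB gene on chromosome 15, had 5.30 to 42.0 TPM in lung, 1.57 to 14.6 TPM in kidney and at most 0.78 TPM in liver. Zfp503, which encodes a developmental repressor without a KRAB domain, had 6.20 to 63.4 TPM in lung, 12.3 to 48.3 TPM in kidney and at most 1.86 TPM in liver. The log2 fold change of Zfp503 for liver against kidney was -4.42 (SE 0.12), with kidney higher in 47 of 47 strains. Zfp711, an X-linked transcription factor, had at most 0.23 TPM in liver, 1.22 to 8.77 TPM in lung and 0.52 to 3.98 TPM in kidney. None of these liver ranges overlapped the lung range.

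Called higher in kidney than in both other tissues were 4 members: Zfp618, Zfp706, Zfp791 and Zfp810. Zfp618 had 4.71 to 16.6 TPM in kidney (median 10.6), 0.48 to 6.91 TPM in lung (median 2.08) and 0 to 1.61 TPM in liver (median 0.31). The log2 fold change of Zfp618 for lung against kidney was -2.70 (SE 0.10, limma adjusted p = 1.6e-45), kidney being higher in every strain. Zfp941 followed at -2.21 and Zfp810 at -1.61, the latter with 14.4 to 96.0 TPM in kidney against 6.23 to 41.1 TPM in lung.

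Grouped by role, 13 of 14 RNA binding and decay genes were members. Their medians were 12.3 TPM in liver, 31.7 in lung and 22.2 in kidney. Zfp36 was the one called higher in liver than lung, and Zfp346, which binds double-stranded RNA, the one called higher in lung, at -1.31. These were 1 of the 13 in each direction, against 23.9% and 31.0% of all genes. Over kidney, liver was called higher for Zfp36, Zfp36l1 (1.45), Zfp598 (1.01) and Zfp385a (1.99), 4 of the 13 against 15.6% of all genes. Kidney was called higher for Zfp706 (-1.10 against liver, -1.57 for lung against kidney), 1 of the 13 against 20.8% and 20.6% of all genes. Lung was called higher than kidney for Zfp36l1 and Zfp385a, 2 of the 13 against 25.5% of all genes. Zfp598, the ubiquitin ligase that marks collided ribosomes, had medians of 23.7, 37.6 and 22.2 TPM in the 3 tissues. Zfp385a, the lowest of the list, had medians of 2.55, 4.79 and 1.09 TPM in liver, lung and kidney.

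Of 26 DNA binding genes without a KRAB domain, 20 were members. Of these, 8 (against 31.0% of all genes) were called higher in lung than liver: Zfp521 (-3.61), Zfp609 (-1.06), Zfp608 (-2.99), Zfp462 (-3.79), Zfp503 (-3.48), Zfp362 (-1.45), Zfp319 (-1.59) and Zfp704 (-2.09). Zfp521, Zfp462, Zfp503 and Zfp704 were also higher in kidney than liver, 4 of the 20 against 20.8% of all genes. Zfp395 and Zfp652 were higher in liver than kidney (1.93 and 1.43), 2 of the 20 against 15.6% of all genes. Lung exceeded kidney for 6 of the 20, against 25.5% of all genes, led by Zfp521 at 2.36 and Zfp608 at 2.04. Zfp521 is known from stem and progenitor cells. Zfp143 and Zfp148, general factors at promoters, were called in no pair, with log2 fold changes between -0.54 and 0.47. The lowest of the list was Zfp740, with medians of 0.23, 1.10 and 0.53 TPM.

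Of 15 KRAB genes with described targets, 13 were members. Zfp57, which binds methylated imprinting control regions, was over the level rule in lung alone: 2.47 to 13.2 TPM there (median 6.13), at most 0.50 TPM in liver and at most 2.09 TPM in kidney. No liver library and no kidney library of Zfp57 reached the lowest lung library. Zfp445, its partner in the upkeep of imprints, was called higher in liver than lung, at 1.08 in 47 of 47 strains. The sign turned with total counts (-0.30) and on TPM (-0.41). Zfp445 was 1 of the 13 called in this direction, against 23.9% of all genes. Zfp90 (-1.21), Zfp382 (-2.76) and Zfp13 (-1.05) were higher in lung than liver, though no KRAB motif was found in Zfp13 (nor in Zfp420 of this list). With Zfp57, 4 of the 13 were called higher in lung than liver, against 31.0% of all genes. Zfp382 was the one called higher in kidney than liver, against 20.8% of all genes. At least 24 liver libraries held 3 counts or fewer of Zfp382, so its fitted folds against liver depend on the prior count. Zfp809 and Zfp932, which silence endogenous retroviruses, were called in no pair. Zfp809 had medians of 8.66, 16.7 and 9.55 TPM, and Zfp932 of 9.06, 29.7 and 22.1 TPM in liver, lung and kidney.

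The corepressor machinery that KRAB proteins recruit was examined next. Of 27 genes on the list 17 were tested, 1 of which was called higher in lung than liver, against 31.0% of all genes, and the calls were Atf7ip, which keeps the methyltransferase Setdb1 in place, and Chd3, a remodeller subunit. Atf7ip was higher in lung, at -1.20 for liver against lung and 1.31 for lung against kidney. Chd3 was higher in kidney, at -1.55 against liver and -1.74 for lung against kidney. Over kidney Atf7ip was 1 of the 17, against 25.5% of all genes. Chd3 was 1 of the 17 in each pair, against 20.8% of all genes over liver and 20.6% over lung. Trim28 itself had medians of 35.2 TPM in liver, 95.2 TPM in lung and 54.5 TPM in kidney, with log2 fold changes of 0.23 for liver against lung and 0.39 for liver against kidney on the TMM scale. With total counts, all 17 were called higher in lung than liver, against 61.6% of all genes.

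Spread between strains within a tissue was measured by the biological coefficient of variation (BCV), the relative spread left after counting error is taken out. The typical member varied about as much as the typical gene or slightly less: the median BCV of members in liver was 0.226, in lung 0.209 and in kidney 0.204, beside 0.232, 0.231 and 0.224 over all genes at that level. A BCV of at least 0.5 was reached by 11 of 219 members in liver (5.02%, against 11.2% of all genes), 19 of 283 in lung (6.71%, against 11.6%) and 14 of 262 in kidney (5.34%, against 10.3%). The members with the highest spread held a KRAB motif, apart from Zfp365. In liver they were Zfp872 (0.99), Zfp970 (0.85) and Zfp951 (0.75), in lung Zfp982 (1.40), Zfp979 (1.39) and Zfp429 (1.09), and in kidney Zfp979 (1.43), Zfp365 (1.22) and Zfp951 (1.05).

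Among these, Zfp970 reached the highest single level of any, 537 TPM in the liver of strain CC021, where the median over strains was 40.8 TPM and the lowest 8.33 TPM. The same strain was highest in lung, at 342 TPM against a median of 58.9 TPM. In kidney the values of Zfp970 stayed between 8.09 and 57.5 TPM. Zfp872 in liver had a median of 1.67 TPM and reached 25.9 TPM in CC045 and 12.0 TPM in CC049, with the next strain at 5.44 TPM. Zfp365 in kidney reached 24.4 TPM in CC007 and 12.4 TPM in CC039, with 2 strains at 0.

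Whether the 3 tissues of a strain deviated together was tested with an F-test over the 46 strain terms of the same limma fit. At q of at most 0.05, 142 of 276 members (51.4%) differed among strains, against 49.8% of all genes tested. With total counts, 50 members (18.1%) passed, against 16.7% of all genes. Without the CPM filter 45.2% of the members and 28.7% of all genes passed, and on log2(TPM + 1) 22.8% and 17.8%. The highest F values belonged to Zfp607a (24.96), Zfp738 (22.6), Zfp979 (19.7), Zfp605 (15.5), Zfp429 (12.1) and Zfp236 (11.5).

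Zfp607a, Zfp738 and Zfp605 each had a few strains with almost no reads in any tissue. The rule that describes them was set after their values were seen: a TPM under 0.1 of the median in both lung and kidney, for genes with a median of at least 3 TPM in both. Of 218 members at that level, 5 had at least 1 such strain, against 1.04% of all 8013 genes, and 4 had at least 3, against 0.462%. Zfp607a, a KRAB gene with 18 fingers at chr7:28647576-28664586 (plus strand), had 0 to 0.12 TPM in lung, 0 to 0.21 in kidney and 0 to 0.08 in liver in strains CC002, CC015, CC021 and CC025, with at most 1 count in a library. The other 43 strains had 4.23 to 32.2 TPM in lung, 2.69 to 9.93 in kidney and 0.75 to 5.38 in liver. No strain lay between.

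Zfp738, a KRAB gene with 20 fingers at chr13:67768374-67788008 (minus strand), showed the same division in other strains. CC004, CC033, CC035 and CC037 had 0.14 to 0.34 TPM in lung, 0 to 0.18 in kidney and 0 to 0.04 in liver, with at most 4 counts in a library. In the remaining strains Zfp738 had 4.46 to 25.6 TPM in lung, 2.08 to 14.2 in kidney and 0.61 to 5.48 in liver. Zfp605, a gene of 12 fingers at chr5:110539111-110560756 (plus strand) in which no KRAB motif was found, was low in CC025, CC028 and CC038, with 0.12 to 0.47 TPM in lung, 0 to 0.21 in kidney and 0 to 0.06 in liver. Elsewhere Zfp605 had at least 4.20 TPM in lung, 2.32 in kidney and 1.09 in liver. CC025 was thus low for both Zfp605 and Zfp607a.

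Most neighbouring members had reads in these strains. In the 4 strains low for Zfp607a, Zfp59, which lies next to it, had 3.73 to 14.8 TPM in lung, and Zfp626 had 4.10 to 24 TPM, both overlapping the other strains. Zfp932, the nearest member to Zfp605, had 32.9 to 36.6 TPM in lung of the 3 strains low for Zfp605. Around Zfp738, Zfp729a had 9.32 to 34.7 TPM and Zfp65 had 8.48 to 22.8 TPM in lung of the 4 low strains. The exception was Zfp429, in the same cluster, which had at most 0.39 TPM in lung and 0.30 TPM in kidney in these 4 strains, at 3 counts or fewer in each. Zfp429 was also low elsewhere: 14 strains had at most 0.44 TPM in lung and the other 33 at least 1.35 TPM.

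**Figure D3:**
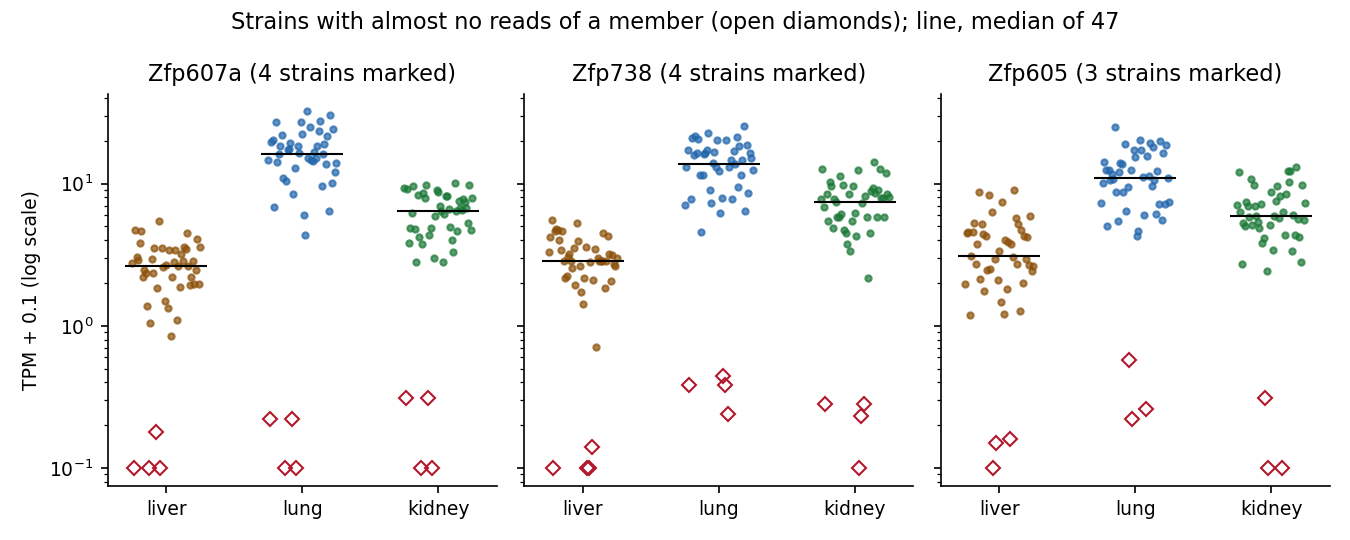
Each point is 1 strain in 1 tissue, with TPM + 0.1 on a log y axis, for Zfp607a, Zfp738 and Zfp605, and the line marks the median of 47 strains. Open diamonds mark the 4, 4 and 3 strains with almost no reads, which lie below all other strains in each tissue.

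Agreement between tissues was measured for each member as the correlation, across the 47 strains, of its TMM-normalised TPM in 2 tissues after rank inverse normal transformation. It was tested with 100000 permutations of the strains and called at q of at most 0.05, adjusted over all genes of the pair. Between lung and kidney, 52 of 262 members (19.8%) were called with positive r, against 12.3% of 10109 genes. Between liver and lung, 28 of 219 (12.8%) were called, against 8.82% of 8551 genes, and between liver and kidney 33 of 218 (15.1%), against 16.5% of 8522 genes. The median r over members was 0.131 in liver with lung, 0.171 in liver with kidney and 0.177 in lung with kidney, beside 0.136, 0.184 and 0.153 over all genes. The calls depended on TMM: on TPM as deposited 0.913% of the members were called in liver and lung, against 0.795% of all genes, 10.6% in liver and kidney, against 8.47%, and 6.49% in lung and kidney, against 2.63%. For liver and kidney the members were thus below all genes under TMM and above them on TPM as deposited, and also above with log2 values (22.0%, against 20.1%).

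Taking the pairs together, 69 members were called in some pair, which was not counted over all genes. Of the 218 members testable in all 3 pairs, 17 (7.80%) were called in each, against 3.85% of all genes. They were Zfp106, Zfp236, Zfp30, Zfp383, Zfp39, Zfp458, Zfp605, Zfp607a, Zfp69, Zfp738, Zfp772, Zfp870, Zfp951, Zfp955b, Zfp963, Zfp970 and Zfp974. Without the 4 low strains of Zfp607a, its r was 0.384 in liver with lung, 0.413 in liver with kidney and 0.327 in lung with kidney. Without the 4 low strains of Zfp738, its r was 0.268, 0.332 and 0.394 in the same order. Of the 52 members called in lung and kidney, 10 did not pass the level rule in liver. A negative r was called for 3 members between lung and kidney, against 0.237% of all genes: Zfp598 (-0.525), Zfp365 (-0.441) and Zfp560 (-0.427). By the same permutation test no member was called with negative r in the pairs with liver, where 0.164% and 0.199% of all genes were, and at an unadjusted p of at most 0.05 there were 2 members in liver and lung and 1 in liver and kidney.

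The 6 members with the highest mean r were Zfp236, Zfp970, Zfp951, Zfp458, Zfp605 and Zfp30. Zfp236, a gene of 30 fingers without KRAB on chromosome 18, had r of 0.725 in liver with lung, 0.698 in liver with kidney and 0.818 in lung with kidney, with rho of 0.757, 0.756 and 0.850. Its TPM ran from 2.48 to 14.3 in liver, 6.13 to 40.1 in lung and 4.30 to 26.3 in kidney, and strain CC068 was highest in both liver and kidney. Zfp970, in the cluster at the end of chromosome 2, had r of 0.785, 0.711 and 0.739 in the same order. Only 35.3% of its windows were unique, and reads from the others may not be counted, so its values are less certain. Zfp951, a KRAB gene on chromosome 5, had r of 0.741, 0.616 and 0.685, and its kidney values spread from 0.39 to 39.8 TPM.

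Zfp458, a KRAB gene of 21 fingers on chromosome 13, had r of 0.628, 0.696 and 0.650. Zfp605 had 0.666, 0.629 and 0.676, and without its 3 low strains r was 0.553, 0.533 and 0.570. Zfp30, a KRAB gene on chromosome 7 that has been tied to neutrophil recruitment in the lung, had r of 0.677, 0.640 and 0.593. Its TPM was 0 to 5.07 in liver, 1.10 to 12.4 in lung and 1.96 to 11.2 in kidney. For these 6 members every permutation p was at most 3e-05, the smallest possible being 1e-05, and q was at most 0.00113. When the 2 strains most distant from the median were dropped, r stayed between 0.557 and 0.805. At the other end, Zfp598, Zfp560 and Zfp771 had the lowest mean r, and Zfp771 had -0.247, -0.181 and 0.070.

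For each of these 6, the genes most like it were sought among 8332 others by the mean r across strains over the 3 tissues, as a description without a test. Zfp970 was nearest to Gm14403 (mean r 0.874) and Zfp971 (0.650). Zfp236 was nearest to Hivep2 (0.448) and Baz1b (0.404), Zfp458 to Bmpr2 (0.479) and Zfp369 (0.444), and Zfp605 to Ttf1 (0.479) and Golga3 (0.465). Zfp30 was nearest to Zfp383 (0.438) and Eif4b (0.360), and Zfp951 to Zfp292 (0.378) and E130102H24Rik (0.376).

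Agreement was more frequent in members with KRAB, a split made after the values were seen and given as a description. Between lung and kidney, 36 of 125 KRAB members (28.8%) were called against 15 of 133 without a KRAB motif (11.3%). Over all genes the share was 12.3%. Between liver and lung the counts were 19 of 101 and 8 of 115, and between liver and kidney 21 of 100 and 11 of 115. The shares over all genes in these pairs were 8.82% and 16.5%. Agreement was also more frequent in members with shared windows. Between lung and kidney, 17 of 36 members with under 80% unique windows were called, 19 of 77 with 80 to 99%, and 15 of 146 with at least 99%. These were 47.2%, 24.7% and 10.3%, so members with at least 99% unique windows lay below the 12.3% of all genes. Unique windows were not counted over all genes. The properties go together, and within members of at least 99% unique windows the lung and kidney calls were 7 of 53 with KRAB (13.2%) and 8 of 92 without (8.70%). With less unique windows they were 29 of 72 with KRAB (40.3%) and 7 of 41 without (17.1%). The difference between KRAB members and the rest was smaller among members whose reads were unique, and this was not tested. By chromosome, 7 of 12 members on chromosome 4 were called between lung and kidney, the highest share of the chromosomes with at least 12 members. This chromosome was picked for its share, 58.3%, beside 19.8% of all members and 12.3% of all genes.

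**Figure D4:**
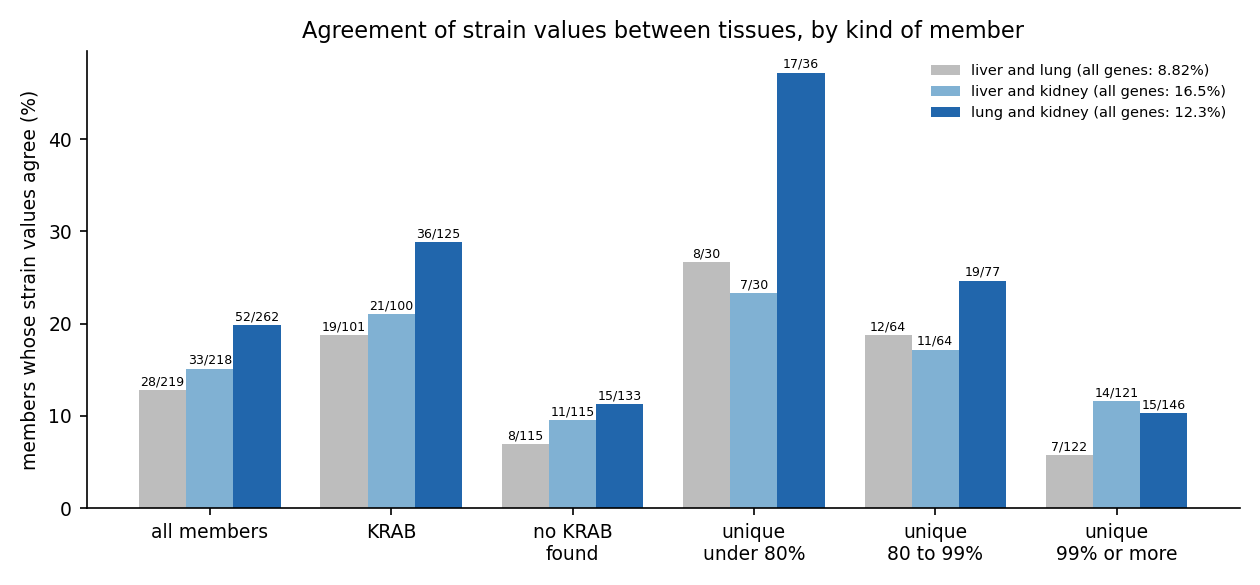
Bars give the percentage of members (y axis) called for positive agreement of strain values between 2 tissues, with the number called and tested above each, for all members, by KRAB motif and by the share of unique 50-base windows. The tallest bar is lung and kidney for members with under 80% unique windows, 17 of 36, and the legend gives the percentages over all genes.

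Of the 7 members called on chromosome 4, Zfp979, Zfp982, Zfp984, Zfp992 and Zfp933 lie in a cluster of KRAB genes near the end of the chromosome, in the order Zfp992, Zfp991, Zfp982, Zfp985, Zfp979, Zfp984 and Zfp933. Zfp985 (chr4:146927386-146959307, plus strand) and Zfp979 (chr4:146986046-147052416, minus strand) are neighbours and were named by the study. The coding sequences of the cluster are shown to let the likeness be seen: below are 50 bases of the KRAB region of each, read from the NCBIM37 genome with GENCODE vM1 coding exons, in which capitals mark bases that differ from Zfp985.
Zfp985: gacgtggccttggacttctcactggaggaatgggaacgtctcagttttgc
Zfp992: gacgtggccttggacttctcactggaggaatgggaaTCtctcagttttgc
Zfp991: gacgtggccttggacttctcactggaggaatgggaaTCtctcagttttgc
Zfp982: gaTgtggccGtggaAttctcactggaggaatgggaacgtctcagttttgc
Zfp979: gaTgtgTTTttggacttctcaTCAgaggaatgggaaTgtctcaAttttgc
Zfp984: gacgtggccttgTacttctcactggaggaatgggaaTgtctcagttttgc
Zfp933: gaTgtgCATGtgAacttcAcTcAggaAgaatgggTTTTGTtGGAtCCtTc

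Zfp992 and Zfp991 were identical here and differed from Zfp985 at 2 positions, as did Zfp984, whereas Zfp982 differed at 3, Zfp979 at 9 and Zfp933 at 22. A read of this length can also fall where members are the same: the window below occurs in the coding sequence of Zfp992, Zfp991, Zfp982, Zfp985 and Zfp979, and its capitals mark the linker between 2 fingers.
shared window: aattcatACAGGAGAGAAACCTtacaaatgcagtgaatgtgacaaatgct

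Such windows were few for most of the cluster. In Zfp985, 7.56% of the 50-base coding windows occurred in another of the 7 members, in Zfp979 0.766%, and in Zfp982 2.31%. Zfp992 and Zfp991 were the exception, sharing 80.0% of their windows. Reads from these windows may not be counted, so the values of both are less certain. Across the whole genome 81.7% of the transcript windows of Zfp979 and 78.3% of those of Zfp985 were unique, and 38.1% of those of Zfp982.

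The strains were parted by Zfp979 after its values were seen, at its widest gap, which was 1.30 on the log2 scale in lung and 1.23 in kidney and so under the 2 set for separate levels. In lung, 24 strains had 0 to 10.03 TPM and 23 had 24.8 to 99.9 TPM. The same 24 strains had at most 3.08 TPM in kidney, and the other 23 at least 7.36 TPM, so both tissues divided the strains alike. In liver the lower strains had 0 to 1.94 TPM and the upper 0.34 to 5.53 TPM, which overlapped. Because of these levels, agreement is given within them: r between lung and kidney was 0.785 among the 24 lower strains (rho 0.831, permutation p = 1e-05) and 0.650 among the 23 upper (rho 0.692, permutation p = 0.00101). At 3 counts or fewer were 11 lung, 12 kidney and 17 liver libraries, 9 strains being so in all 3 tissues.

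Zfp985 had a lower median than Zfp979 in each tissue. It had 0 to 6.69 TPM in lung (median 1.52), 0 to 4.41 TPM in kidney (median 0.90) and at most 0.40 TPM in liver, where 42 of 47 libraries held 3 counts or fewer. Zfp985 passed the level rule in lung alone. Zfp982 had a median of 1.26 TPM in lung and reached 43.6 TPM in CC053, which was also its highest strain in kidney (17.5 TPM) and liver (21.6 TPM). In lung 7 strains had 0 TPM of Zfp982 and the other 40 at least 0.32 TPM. Of these 40 lung libraries, 13 also held 3 counts or fewer, so the gap does not part resolved from unresolved counts. In kidney the 7 strains reached 0.93 TPM, all at 3 counts or fewer. Zfp984 had 0 to 31.8 TPM in lung, 0 to 8.44 TPM in kidney and at most 2.07 TPM in liver. In contrast Zfp933, the most distant in sequence, had reads in every library, with 5.38 to 41.7 TPM in lung, 7.28 to 21.8 in kidney and 2.68 to 10.4 in liver. Across strains in lung, Zfp985 went with Zfp979 (r = 0.674) and Zfp982 with Zfp984 (r = 0.743), while Zfp985 and Zfp982 had r of -0.132, all as descriptions on 47 strains that share libraries.

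The study named Zfp985 as a candidate regulator of Akr1e1, an aldo-keto reductase, and Zfp979 of Ccnyl1, a cyclin-like gene. It chose both pairs on these same samples, so the values below are no independent evidence. For Zfp985 and Akr1e1 the study also reported the relation in kidney of Diversity Outbred mice, and a chromatin mediator near Akr1e1. For Ccnyl1 it listed Zfp985 as a further mediator in lung. These were not examined here. In lung, the correlation of Zfp985 with Akr1e1 was -0.698 (rho -0.766, permutation p = 1e-05) and was the strongest of 12451 genes correlated with Akr1e1. Adjusted over these genes q was 0.125, which is the smallest that 100000 permutations allow for a single gene. In kidney r was -0.581 (rho -0.649, p = 3e-05, q = 0.108 by permutation, rank 2 of 10806), and in liver 0.035. Zfp985 passed the level rule in lung alone, and 13 lung, 15 kidney and 42 liver libraries held 3 counts or fewer of it. Its r in liver is therefore unresolved. Akr1e1 had 1.27 to 32.1 TPM in lung and 5.31 to 150 TPM in kidney. When the 2 strains most distant from the median of Zfp985 were dropped, r was -0.727 in lung and -0.580 in kidney.

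The correlation of Zfp979 with Ccnyl1 was 0.723 in lung (rho 0.763, permutation p = 1e-05, q = 0.0415) and the strongest of 12451 genes. In kidney r was 0.584 (rho 0.580, permutation p = 3e-05, q = 0.0675, rank 4 of 10805), and in liver 0.236. Dropping the 2 strains most distant from the median of Zfp979, r was 0.708 in lung and 0.590 in kidney. The relation was also taken within the lower and the upper strains. Among the 24 lower strains r in lung was -0.033 (permutation p = 0.877) and in kidney 0.401 (permutation p = 0.0528). Among the 23 upper strains it was 0.579 in lung (permutation p = 0.00403) and 0.490 in kidney (permutation p = 0.0181). Of the lower strains 11 had 3 or fewer Zfp979 counts in lung, so r is poorly resolved there, and whether the levels differed in r was not tested.

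**Figure D5:**
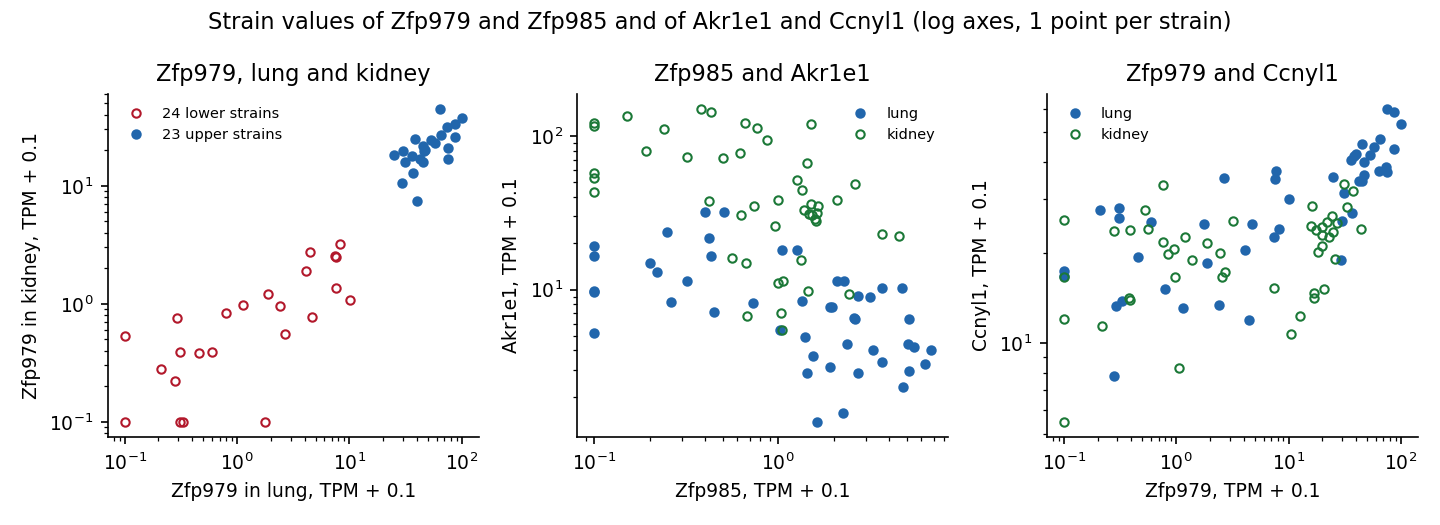
Each point is 1 strain, with TPM + 0.1 on log axes: Zfp979 in lung (x axis) against kidney (y axis), Zfp985 against Akr1e1, and Zfp979 against Ccnyl1, the last 2 panels with lung filled and kidney open. In the first panel 24 lower and 23 upper strains lie apart on both axes, and in the second Akr1e1 in lung is lower where Zfp985 is higher (r = -0.698).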

How the data were processed

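Total RNA depleted of ribosomal RNA from 47 samples of each tissue was sequenced with 50-base single-end reads. The authors aligned them with STAR 2.5.3a to a pseudo-genome of each strain built on mm9. They quantified 24423 genes with RSEM from reads that aligned uniquely. The deposited expected counts are estimated reads per gene, which were rounded here because 25 of the deposited values were not whole. The TPM deposited by the authors corrects them for length and library size. The strand setting of the counting is not given in the sources used here, so the antisense member Zfp85os and Zfp85 cannot be told apart with certainty. The deposited FPKM was not used.

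Samples were grouped by the tissue and strain in their labels. The members and gene lists were chosen with earlier results of these data known. Depth is given in the report, and a count of 3 or fewer was treated as unresolved, which covers counting error only. limma 3.58.1 with edgeR 4.0.16 (R 4.3.3) gave TMM factors, voom fits with strain and tissue terms, F-tests and dispersions, adjusted over all genes. The paper's batch term was left out because the labels give no batch. DESeq2 1.42.0 served as an alternative. Correlations used rank inverse normal values (offset 0.375) in Python 3.11.15 with numpy 2.4.6, pandas 2.3.3, scipy 1.17.1 and numba 0.67.0, and 100000 permutations. Sequences were read with Biopython 1.88, and figures drawn with matplotlib 3.10.9. The tissues of a strain come from 1 mouse, and the deviations of same-strain libraries from their tissue means correlated at a median of 0.161 for liver with lung, 0.161 for liver with kidney and 0.200 for lung with kidney, against about -0.005 between strains.

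The genes named are those the study names, the 3 highest members of each tissue, and per tissue pair and direction the 3 largest called changes with the same direction in at least 45 of 47 strains. Added to these are the 6 members with the highest and 3 with the lowest mean r, the 3 with the highest spread per tissue, the highest and lowest of each role list, the members next to the level rule, and the 2 genes nearest to each of the 6. Other genes were named after their values were seen. On data simulated for liver against lung with 12127 genes, 193 of 193 changed genes were called with 0 false calls, and the strain F-test found 197 of 197 with 25 false calls. Alternatives covered the scaling, test, values, filter, thresholds, strain term, strains CC032 and CC042, and the member rule. Chromatin accessibility and genotypes were not analysed here.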

Additional observations from a re-analysis of the deposited data

How the results depend on the processing

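Each alternative changed 1 choice, except that the DESeq2 Wald test also brought its own size factors and limma on TPM used neither TMM nor voom weights. Counts are given as higher in liver and in lung, in liver and in kidney, and in lung and in kidney, in that order of pairs. Total counts without a scaling factor gave 1 and 227, 4 and 137, and 73 and 4 members. limma on log2(TPM + 1) gave 0 and 217, 4 and 85, and 67 and 4, and on log2(TPM + 0.1) 1 and 238, 4 and 138, and 91 and 4. Without a fold threshold the counts were 87 and 157, 100 and 123, and 168 and 72. DESeq2 size factors and the DESeq2 Wald test each left 8 members higher in liver than lung. The fit without the strain block, the pairing of tissues being known from the mouse, gave 17 and 59, 17 and 35, and 33 and 9, and moved no count by over 1.5 times.

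Members that differed among strains numbered 50 with total counts, 63 on log2(TPM + 1) and 62 on log2(TPM + 0.1). Members with agreement numbered 2 in liver and lung and 17 in lung and kidney on TPM without TMM, and 20 in liver and kidney and 32 in lung and kidney at q of at most 0.01. The kidney relation of Zfp985 and Akr1e1 passed the threshold on TPM without TMM (r = -0.453, q = 0.0379), and that of Zfp979 and Ccnyl1 on TPM without TMM (r = 0.432, q = 0.00394) and with the first principal component removed (r = 0.630, q = 0.0309). On TPM without TMM 1539 genes passed with Akr1e1 and 9019 with Ccnyl1, and the pairs ranked 419 and 7213. In lung on TPM without TMM, Zfp985 and Akr1e1 had r = -0.527 (q = 0.921), and Zfp979 and Ccnyl1 r = 0.793 at rank 226 among 11186 genes passing.

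Of the corepressor genes, 17, 15, 17 and 3 were higher in lung than liver with total counts, log2(TPM + 1), log2(TPM + 0.1) and no CPM filter. In the same order 8, 6, 8 and 2 were higher in kidney than liver, and 3, 3, 3 and 3 higher in lung than kidney. These corepressor alternatives were added after seeing the data. The sign of Zfp36 for liver against lung turned with total counts (-0.024) and on both TPM scales (-0.14 and -0.14), as did that of Zfp445 (-0.30, -0.41 and -0.42). All other directions of genes named by the level and fold rules held in the alternatives run. The cause of these shifts was not tested. Depth limits the low members: liver libraries had as few as 1738046 counts, and 1 mouse per strain leaves no error within a strain.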

Other observations

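Of the 107 Zfp symbols outside the level rule, 54 had no library over 1 TPM, and 7 of all 390 were listed at 0 in every library. Another 25 passed 1 TPM in 1 to 5 libraries of a tissue at most. The 20 members that passed in lung alone were Zfp141, Zfp296, Zfp300, Zfp474, Zfp57, Zfp583, Zfp663, Zfp740, Zfp773, Zfp783, Zfp831, Zfp85os, Zfp865, Zfp869, Zfp934, Zfp935, Zfp949, Zfp960, Zfp985 and Zfp991.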
